A study of Homo sapiens with 3 samples.

Results

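The genes described here are the cyclins, kinases and inhibitors that control passage through G1, the phase of the cell cycle before DNA is copied: the D-type cyclin genes Ccnd1, Ccnd2 and Ccnd3, the kinase genes Cdk4 and Cdk6, the inhibitor genes Cdkn1a, Cdkn1b, Cdkn2a and Cdkn2c, and the retinoblastoma gene Rb1. They were chosen by symbol, with no threshold on their values but with earlier results of these data known, and 9 of the 10 matched a row among the 13936 genes of the table. Cdkn2a matched none and is not analysed here. All 9 passed the filter on low values, a mean of at least 10 scaled counts over the libraries. The libraries come from AB12, a mouse malignant mesothelioma cell line grown in RPMI with 10% serum. The control library is labelled shSC, taken here as a control hairpin, and its source label reads WT. The 2 other libraries are labelled shNF2, taken here as hairpin knockdown of the merlin gene Nf2, with the numbers 20 and 21. Their source labels read KD. No label says what these numbers stand for or whether cultures or clones were separate, so p-values reflect only how far the libraries differ, and that spread may be technical. The samples are labelled as human, but their gene identifiers are those of the mouse and the submitters' processing notes name a mouse genome build.

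D-type cyclins are made in response to growth signals and bind the kinases CDK4 and CDK6. These complexes phosphorylate the retinoblastoma protein, which releases E2F transcription factors and lets the genes of DNA synthesis be switched on. The Ink4 inhibitors, encoded by the Cdkn2 genes, bind CDK4 and CDK6 directly, while the Cip/Kip inhibitors p21 (Cdkn1a) and p27 (Cdkn1b) bind cyclin-CDK complexes and block cyclin E-CDK2 above all. Merlin has been described as restraining cyclin D1 and progress through G1, and the CDKN2A locus is among those most often deleted in human mesothelioma.

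Reads assigned to genes numbered 29532600 in shSC, 25837151 in library 20 and 26829163 in library 21. Nf2, the targeted gene, stood at 1539 scaled counts in the control against 486 and 458 in libraries 20 and 21. Both shNF2 libraries lay below shSC, by a log2 fold change of -1.70 (SE 0.24, n = 2 libraries against 1), and Nf2 passed the test (limma adjusted p = 0.00555) except under quantile normalization (0.496) and with no variance trend (0.187). Of 11 mesothelial markers 5 had a row, while Wt1 and Calb2 matched none. In shNF2 these 5 lay on both sides of shSC: the keratin gene Krt7 was higher at 290 and 183 scaled counts against 49.7 for shSC (log2 fold change 2.19, limma adjusted p = 0.0119, lost under quantile normalization at 0.523 and without a variance trend at 0.188), Msln, the mesothelin gene, was above shSC in both shNF2 libraries (0.34), and the keratin genes Krt19 (-0.86, adjusted p = 0.0996, and 0.0321 with no filter on low values), Krt18 (-0.36) and Krt8 (-0.37) were below it in both. Of the macrophage markers 4 of 8 had a row, with summed scaled counts of 9307, 8559 and 8070 for shSC, library 20 and library 21, but the defining genes Adgre1 and Csf1r matched none. Mrc1 and Cd14 carried that sum. The lysozyme gene Lyz2 had 56.5, 260 and 108 scaled counts (log2 fold change 1.55, limma adjusted p = 0.191). Cd14, a receptor gene for bacterial lipopolysaccharide, went the opposite way with 3222, 2576 and 1659 (-0.64, limma adjusted p = 0.440). Mrc1 (5940, 5617 and 6215) and Cd68 (88.6, 105 and 87.5) showed no shared direction. The part of these markers in the members' values was not tested. Of the fibroblast markers 2 of 7 had a row, with a summed level between 13.6 and 21.4, and the 5 endothelial and 6 lymphocyte markers matched none.

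No member passed the test in shNF2 against shSC. The limma fit, with Benjamini-Hochberg adjustment over all 12813 genes tested and a threshold of 0.05, called 0 of the 9 members, where it called 0.843% of all genes (0.414% rose and 0.429% fell). edgeR and DESeq2 on the recovered reads also called 0 of the 9. At an unadjusted p under 0.05, limma had 2 of the 9 members, Ccnd2 and Cdkn2c, beside 9.27% of all genes tested. That count of members was 0 without a variance trend, 1 with DESeq2 and 3 after a correction for length and GC. Among all genes these settings had 1036 of 12813, 712 of 12813 and 1263 of 10319 at that threshold. The cyclin genes Ccnd1, Ccnd2 and Ccnd3 and the p21 gene Cdkn1a were above shSC in both shNF2 libraries, 4 of 9 members beside 36.1% of all genes. The p27 gene Cdkn1b and the p18 gene Cdkn2c were below shSC in both, 2 of 9 beside 35.8% of all genes. Together, 6 of the 9 lay on 1 side of shSC in both libraries, beside 71.9% of all genes. For Cdk4, Cdk6 and Rb1 the shSC value lay between those of the shNF2 libraries. Both shNF2 libraries are set against the same shSC library, so a shared direction is not a replication. The median log2 fold change of the members was -0.028, beside -0.0043 over all genes tested.

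**Figure D1:**
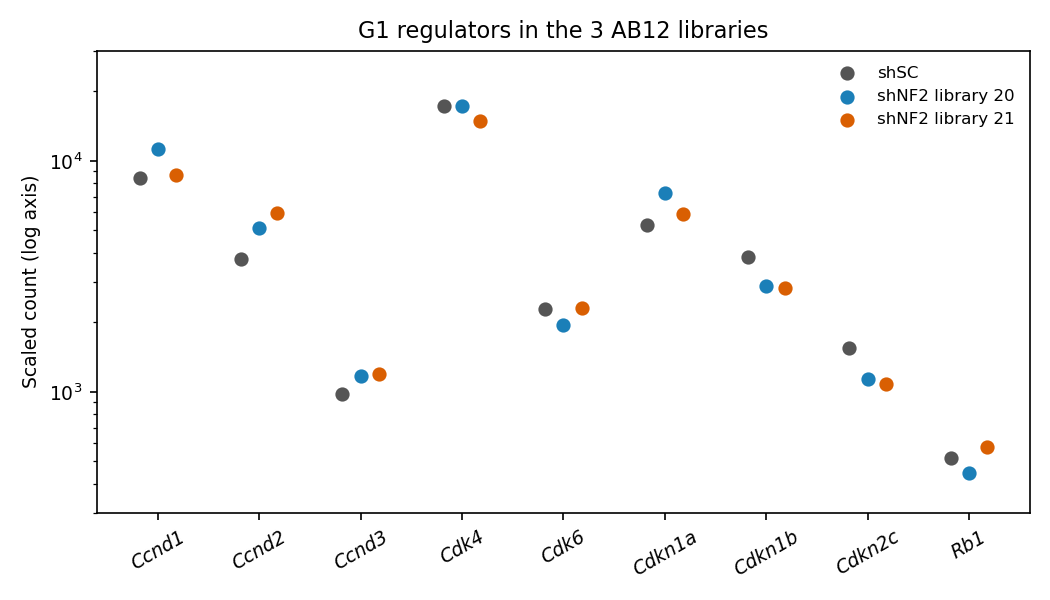
Scaled counts (log axis) of the 9 members in shSC (grey), shNF2 library 20 (blue) and shNF2 library 21 (orange), 1 point per library. Ccnd2, Ccnd3, Ccnd1 and Cdkn1a lie higher in both shNF2 libraries, Cdkn1b and Cdkn2c lower, and the remaining 3 on either side; counts are not divided by transcript length, so heights of different genes are not comparable.

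Among the D-type cyclins, Ccnd2 had the largest difference. Its scaled counts were 3750 for shSC, 5114 for library 20 and 5933 for library 21. Both shNF2 libraries were higher, at 136% and 158% of shSC, and the log2 fold change was 0.55 ± 0.21 (SE; 95% interval 0.097 to 1.01; limma adjusted p = 0.391). Ccnd1, the cyclin gene that merlin is described as restraining, was at 8398 scaled counts (shSC), 11233 (library 20) and 8699 (library 21). Library 20 stood at 134% of shSC and library 21 at 104%, close to the control. The log2 fold change of Ccnd1 was 0.24 ± 0.23 (SE; limma adjusted p = 0.799), and its 95% interval, in linear terms a fold of 0.838 to 1.65, covers both directions. Ccnd3, the third D-type cyclin gene, had 979, 1167 and 1198 scaled counts in shSC, library 20 and library 21. Its shNF2 libraries were close to each other, at 119% and 122% of shSC, with a log2 fold change of 0.27 ± 0.22 (SE; adjusted p = 0.763). The 3 cyclin genes summed to 13126, 17514 and 15831 scaled counts for shSC, library 20 and library 21. RNA of a whole culture does not tell fewer cells in a given state from less RNA per cell, here and in the results that follow.

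The make-up of the D-type cyclin reads differed between the shNF2 libraries. This share is taken within a library, so it does not depend on the size factors; it is not corrected for transcript length, and only its change between libraries is read. Ccnd2 held 28.6% of the 13481 D-type cyclin reads in shSC (95% Wilson interval 27.8 to 29.3), 29.2% in library 20 (28.5 to 29.9) and 37.5% in library 21 (36.7 to 38.2). Ccnd1 held 64.0%, 64.1% and 55.0% in the same order, and Ccnd3 between 6.67% and 7.57%. Library 21 thus stood apart from shSC and library 20, which had overlapping intervals for Ccnd1 and Ccnd2. Library 21 is also the library whose difference from shSC moved with GC content, and human stand-in transcripts of Ccnd1 and Ccnd2 had 57.3% and 51.0% GC. The change of Ccnd2 minus that of Ccnd1 in library 21 was 0.61 on the log2 scale, and 0.42 after correction for length and GC. The part of GC in the shares was not tested beyond this correction, which used human stand-ins. The intervals cover counting error only, and with 1 control library the shares were not tested between groups.

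**Figure D2:**
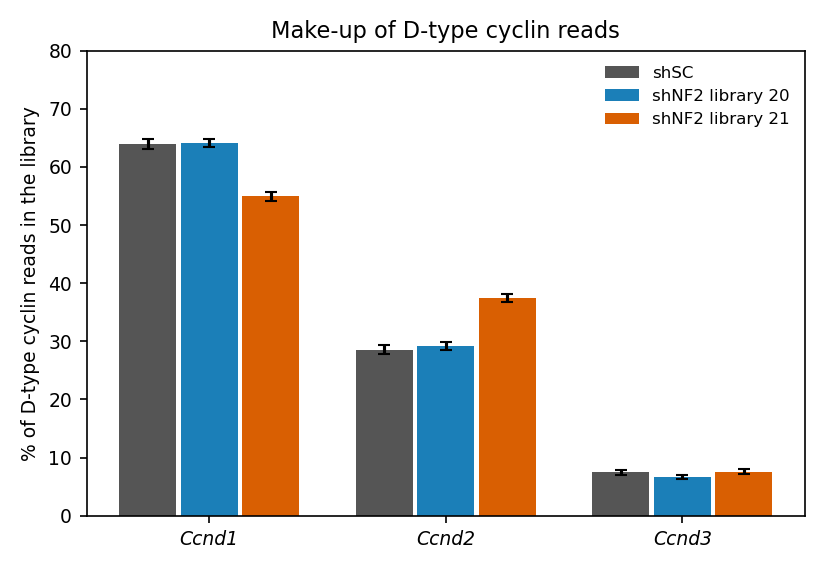
Share of the D-type cyclin reads of each library (y axis, percent) held by Ccnd1, Ccnd2 and Ccnd3, for shSC, shNF2 library 20 and shNF2 library 21; error bars are 95% Wilson intervals for counting error. In library 21 the Ccnd2 share is 37.5% and the Ccnd1 share 55.0%, against 28.6% and 64.0% in shSC.

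The partner kinases showed no shared direction. The scaled counts of Cdk4 were 17305 for shSC, 17321 for library 20 and 14835 for library 21. Library 20 was level with shSC and library 21 was at 85.7% of it. The log2 fold change of Cdk4 was -0.11 (95% interval -0.59 to 0.37), and it was 0.071 under quantile normalization. Cdk6, the kinase gene whose protein overlaps in function with CDK4, was at 2277 scaled counts (shSC), 1940 (library 20) and 2304 (library 21). Here library 21 was level with shSC and library 20 was at 85.2% of it, with a log2 fold change of -0.11 (95% interval -0.58 to 0.37). In linear terms the limma intervals ran from 0.664 to 1.29 for Cdk4 and from 0.669 to 1.29 for Cdk6. They assume that shSC varies as the shNF2 libraries do, so with 1 control library they do not bound an effect of the knockdown.

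The Cip/Kip inhibitor genes went in opposite directions without passing the test. Cdkn1a, a well-known p53 target that encodes p21, was at 5292 scaled counts (shSC), 7259 (library 20) and 5871 (library 21). Library 20 was at 137% of shSC and library 21 at 111%, and the log2 fold change was 0.30 ± 0.22 (SE; limma adjusted p = 0.731). Cdkn1b, which encodes p27, was at 3823 scaled counts (shSC), 2876 (library 20) and 2810 (library 21). The shNF2 libraries nearly coincided, at 75.2% and 73.5% of shSC, with a log2 fold change of -0.43 ± 0.21 (SE; 95% interval -0.87 to 0.020; limma adjusted p = 0.568). The ratio of Cdkn1a to Cdkn1b reads within a library was 1.38 in shSC, 2.52 in library 20 and 2.09 in library 21. Both shNF2 libraries thus had more p21 reads per p27 read than shSC, a change of 0.87 and 0.59 on the log2 scale. This ratio was picked after the values had been seen and was not tested.

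Of the Ink4 genes, Cdkn2c, which encodes p18, was at 1554 scaled counts (shSC), 1137 (library 20) and 1081 (library 21). Both shNF2 libraries were lower and close to each other, at 73.2% and 69.6% of shSC. The log2 fold change was -0.49 ± 0.22 (SE; 95% interval -0.96 to -0.010; unadjusted p = 0.0459 and adjusted p = 0.522 with limma). Cdkn2d, the gene of the p19 Ink4 protein and not a member, had 603, 584 and 477 scaled counts in shSC, library 20 and library 21, lowest in library 21. Cdkn2b and Cdkn1c, a further Ink4 and a further Cip/Kip gene, matched no row and are not analysed here.

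**Figure D3:**
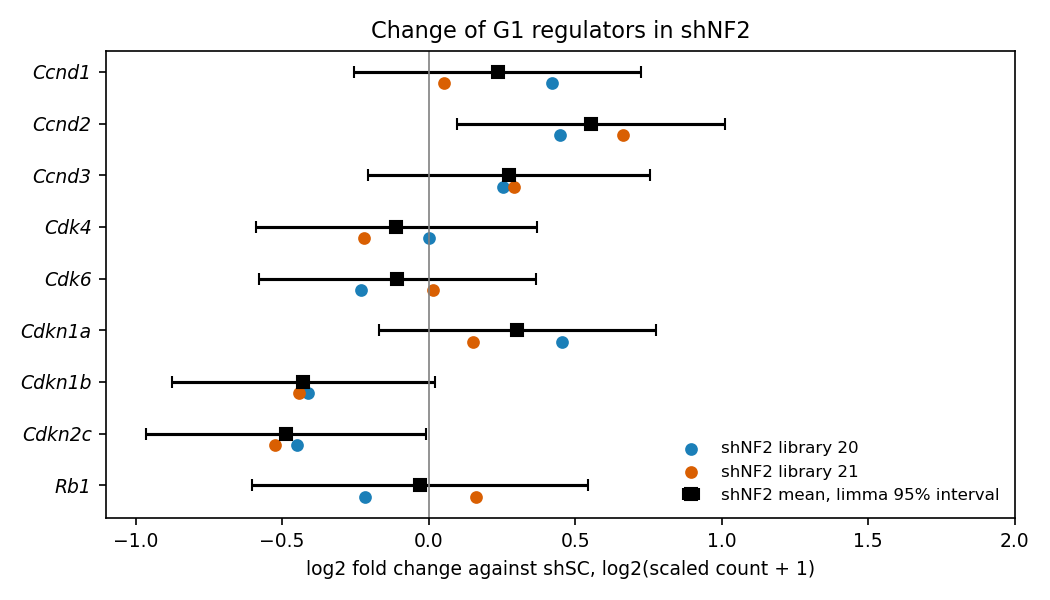
Log2 fold changes of the 9 members against shSC on the log2(scaled count + 1) scale (x axis): squares are the limma estimates for shNF2 with 95% intervals, and blue and orange points are libraries 20 and 21. The intervals of Ccnd2 and Cdkn2c lie to one side of 0 before adjustment, the others cross 0, and no member passes after adjustment over all genes.

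In human RefSeq (GRCh38.p14), used only for gene order, CDKN2A lies on chromosome 9 between MTAP and CDKN2B. MTAP, which encodes an enzyme that recycles the by-product of polyamine synthesis, is often lost together with CDKN2A in tumours. In AB12 the scaled counts of Mtap were 42065 for shSC, 27683 for library 20 and 29637 for library 21, so its RNA was detected in every library. Its log2 fold change was -0.55 (limma adjusted p = 0.451), with both shNF2 libraries below shSC. Klhl9, a ubiquitin ligase adaptor gene farther along, had 4486, 4533 and 4247 scaled counts and showed no shared direction. Hacd4, a fatty acid elongation enzyme gene at the far end of the neighbours taken, was the 1 gene that rose among the 65 other pathway and neighbour genes tested, where 0.414% of all genes rose. Its reads numbered 4, 45 and 42 in shSC, library 20 and library 21, and the log2 fold change was 3.20 ± 0.54 (SE), with a limma adjusted p = 0.0137. The Hacd4 call rests on few reads in shSC, and its log2 fold change ran from 1.95 with a pseudocount of 10 to 3.49 with DESeq2. It was lost with edgeR (adjusted p = 0.0505), without a variance trend (0.0771), with DESeq2 (0.199) and under quantile normalization (0.496), and the gene was not tested with a mean of at least 50. Dmrta1, Elavl2, Ifnb1 and Ifna1 matched no row and are not analysed here.

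Rb1, the gene of the retinoblastoma protein that CDK4 and CDK6 phosphorylate, was at 516 scaled counts (shSC), 444 (library 20) and 577 (library 21). The shNF2 libraries lay on either side of shSC, at 85.9% and 112% of it, and the log2 fold change was -0.028 (95% interval -0.60 to 0.54; limma adjusted p = 0.983). The related pocket protein genes Rbl1 and Rbl2 were above shSC in both shNF2 libraries. Rbl1 had 2343, 2687 and 3284 scaled counts in shSC, library 20 and library 21, and Rbl2 had 395, 472 and 491, with log2 fold changes of 0.34 and 0.28 (limma adjusted p = 0.694 and 0.787).

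The size of the members' differences can be set against what the test called at like levels. All 9 members had a mean above 500 scaled counts, and 6713 genes tested had one of at least 500. Of these, 47 passed, and the smallest change among them was 0.99 on the log2 scale, that of Ankrd1. The members ran from -0.49 for Cdkn2c to 0.55 for Ccnd2, all smaller than this, and the median standard error at these levels was 0.23. No change of the members' size passed for any gene at these levels with these 3 libraries, and a missed threshold does not show that a gene did not change. The shNF2 libraries differed from each other by a median of 0.19 (log2, in size) over these genes. The members Rb1, Ccnd1, Cdkn1a, Cdk6, Cdk4 and Ccnd2 differed by more, up to 0.38 for Rb1, whereas Cdkn1b, Ccnd3 and Cdkn2c differed by 0.033 to 0.073. These gaps are with the authors' scaling, and that of Ccnd3 was wider after correction for length and GC.

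**Figure D4:**
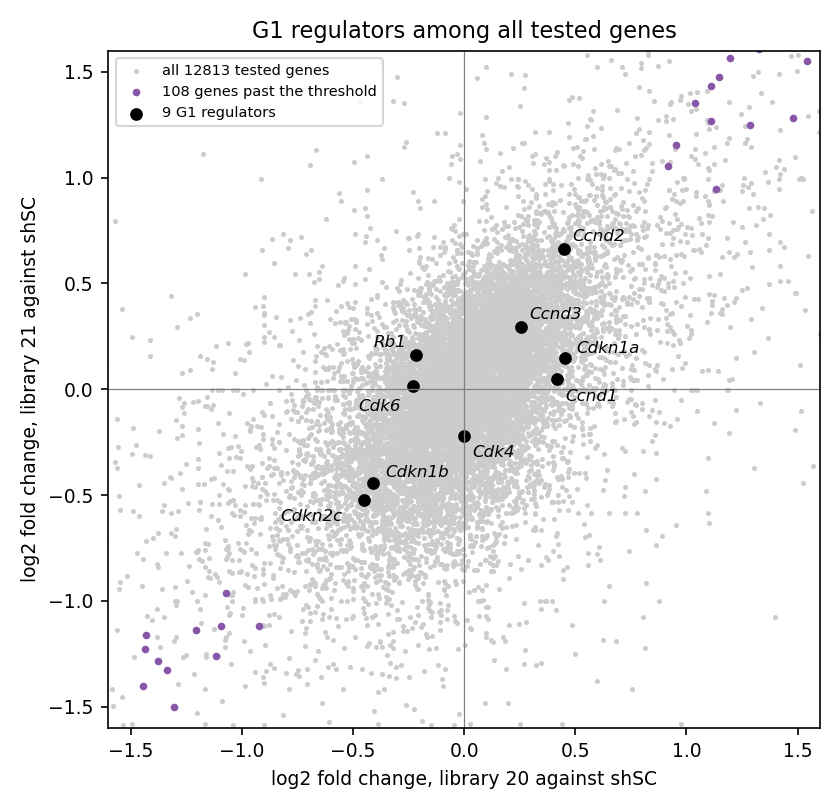
Log2 fold changes against shSC in library 20 (x axis) and library 21 (y axis) for all 12813 tested genes (grey), the 108 genes past the threshold (purple) and the 9 members (black); 358 genes lie outside the axis limits of 1.6. The members lie within the central cloud, away from the called genes; both axes share the shSC library, which draws points toward the diagonal.

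GC content moved with the difference of library 21 from shSC. With human transcripts of the same symbol as stand-ins, genes were split by GC into 8 groups of like size. From the lowest to the highest GC group the median log2 fold change ran from 0.19 to -0.31 in library 21 and from 0.017 to -0.053 in library 20. The stand-ins of Ccnd1 and Cdk4 had 57.3% and 57.4% GC, in a group whose median in library 21 was -0.091, that of Cdkn1a had 57.7%, in a group at -0.18, and that of Rb1 had 37.8%, in the group at 0.19. The part of GC in the members' values was not tested beyond the correction that follows. After correction for length and GC, Ccnd1 had 0.37 in library 20 and 0.14 in library 21, Cdkn1a 0.41 and 0.27, Cdk4 -0.017 and -0.044, and Rb1 -0.26 and -0.042. Ccnd3, whose stand-in had 59.7% GC, had 0.23 and 0.49. The 4 members above shSC in both libraries were the same with the authors' scaling, TMM, quantile normalization and this correction, and Cdkn1b and Cdkn2c were below in both under each. Those below in both numbered 3 with TMM (Cdk4 added) and 3 under quantile normalization (Cdk6 added). After the correction they numbered 5 (Cdk4, Cdk6 and Rb1 added). Some of these additions rest on values level with shSC. Cdk4 was at -0.0037 in library 20 with TMM, and Cdk6 at -0.0011 in library 21 under quantile normalization.

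The other genes of G1 and of entry into S phase likewise stayed under the threshold. Leaving out the neighbours of Cdkn2a, 62 pathway genes of 65 listed were tested, and limma called 0 of them, with 6 (9.68%) at an unadjusted p under 0.05, near the 9.27% of all genes. edgeR and DESeq2 also called 0. Their median log2 fold change was 0.039, 28 were above shSC in both shNF2 libraries and 18 below in both, beside 36.1% and 35.8% of all genes.

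Cyclin E and CDK2 act after the D-type cyclins. Ccne2, a cyclin E gene, was at 11864 scaled counts (shSC), 8700 (library 20) and 9135 (library 21), lower in both shNF2 libraries, with a log2 fold change of -0.41 (limma adjusted p = 0.600). Ccne1, the other cyclin E gene, was level, with 2495, 2361 and 2508. Cdk2 had 1601, 1447 and 1388 (-0.18), and Ccna2, the cyclin A gene of S and G2, had 3298, 4158 and 5680, higher in both (0.56; adjusted p = 0.456). Of the 10 E2F and DP factor genes 4 were above shSC in both libraries and 4 below in both, near the 36.1% and 35.8% of all genes. E2f7, an E2F that represses transcription, was at 220 scaled counts (shSC), 368 (library 20) and 388 (library 21). Its log2 fold change of 0.78 (adjusted p = 0.328) was the largest of this list. E2f1, an activator, had 631, 559 and 495, and E2f2 and Tfdp2 had log2 fold changes of -0.35 and 0.28.

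The 20 E2F target genes, which serve DNA replication and nucleotide supply, had a median log2 fold change of 0.14, with 0.036 in library 20 and 0.16 in library 21. Of them 11 were above shSC in both libraries and 6 below in both, beside 36.1% and 35.8% of all genes. limma, edgeR and DESeq2 called 0 of the 20, and 2 had an unadjusted limma p under 0.05, beside 9.27% of all genes. Rrm1, a ribonucleotide reductase subunit gene, was at 8453 scaled counts (shSC), 10508 (library 20) and 14723 (library 21), and the replicative helicase genes Mcm4 and Mcm6 had log2 fold changes of 0.48 and 0.37. Pcna, the sliding clamp gene, went the other way with 35008, 25907 and 29082. Members of this list therefore lay on both sides of shSC. With limma, Rrm1, Mcm4 and Mcm6 had log2 fold changes of 0.56, 0.48 and 0.37. After correction for length and GC these were 0.44, 0.39 and 0.25. The part of GC in the other genes of the list was not tested.

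Upstream regulators and the machinery of protein turnover were tested as well. Mdm2, the ligase gene that p53 induces and that restrains p53, was at 7898 scaled counts (shSC), 11061 (library 20) and 11265 (library 21), with a log2 fold change of 0.50 (limma adjusted p = 0.465). Trp53 itself was level at 2190, 2234 and 2231, and Myc had 1353, 1454 and 1216. Pak1, a kinase gene whose protein merlin inhibits, had 358, 499 and 569 (0.57; adjusted p = 0.517), and Zbtb17, which encodes a partner of Myc, had -0.28. Of 11 tested genes for the degradation of G1 regulators 4 were above shSC in both libraries and 3 below in both, beside 36.1% and 35.8% of all genes. Skp1a, a subunit gene of the SCF ubiquitin ligase that destroys p27, had a log2 fold change of -0.45, its scaffold gene Cul1 0.30, and Ddb1, the adaptor gene of CUL4 ligases, 0.35. Skp2, the subunit that recognises p27, had 1322, 1453 and 1289 scaled counts and no shared direction. Of the CDK-activating kinase, which phosphorylates CDKs to activate them, Cdk7 had 8789, 6934 and 6506 scaled counts (-0.39; adjusted p = 0.629) and Mnat1 a log2 fold change of 0.15. Hsp90ab1, a chaperone gene whose protein folds CDK4 together with CDC37, had 0.37.

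**Figure D5:**
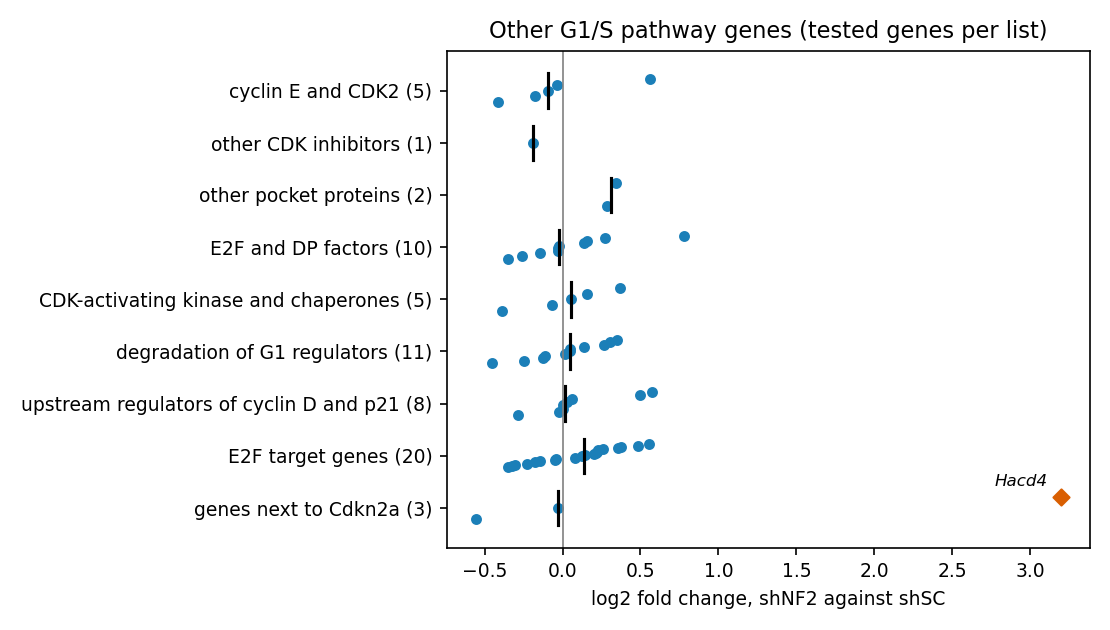
Log2 fold change in shNF2 against shSC (x axis) of each tested gene of 9 lists of G1/S pathway genes and of genes near Cdkn2a, with the number tested in brackets; black lines are list medians and the orange diamond marks the called gene. List medians run from -0.19 to 0.31 and Hacd4, at 3.20, is the sole called gene.

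Nearest genes were sought among named symbols only, leaving out Rik, Gm and clone-type names. Those whose changes lay nearest to Ccnd1 were Glb1, Creld2 and Slc35f5. Their distances were 0.0141, 0.0156 and 0.0161 between the pairs of log2 fold changes in libraries 20 and 21. For Cdkn1a the nearest were Tesk2, Qsox1 and H6pd, at 0.0123, 0.0127 and 0.0235. With 3 libraries this likeness is common. Of 10062 other genes with a mean of at least 100, all symbols counted, 1.14% lay within 0.1 of Ccnd1. For Cdkn1a the share was 1.10%.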

How the data were processed

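The authors deposited 1 table of gene signal, scaled counts by its name. Tools listed in the submitters' processing notes, without their roles, are STAR 2.5.0a, HTSeq 0.5.3, cutadapt 1.6 and DESeq 1.22.1, and the build is mm10. Every value in the deposited table came out whole (tolerance 0.001 reads) after multiplication by 1 factor per library (0.956 for library 20, 1.03 for shSC and 1.03 for library 21). No source used here says whether reads were counted by strand. The table's smallest total was 15 reads over the libraries, so low genes had been removed; 4 rows naming no gene, with 47.7% to 48.7% of reads, were left out.

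Groups came from the labels. log2(scaled count + 1), a scale that understates changes of low genes, was fitted with limma 3.58.1 in R 4.3.3 using a variance trend, for genes with a mean of at least 10. The spread has 1 residual degree of freedom, from the shNF2 libraries, plus 11.9 prior, and shSC was assumed to vary alike. The smallest p of an exact permutation of these libraries is 0.333. edgeR 4.0.16 and DESeq2 1.42.0 on the recovered counts, other pseudocounts, filters and scalings, and each shNF2 library left out were alternatives. A length and GC correction (mgcv 1.9.3), added after the data had been seen, used human GENCODE transcripts of the same symbol or synonym as stand-ins, covering 10319 tested genes (80.5%). The members and lists were chosen with earlier results of these data known. Text names all members, Nf2, and the called genes of each pathway list or else its 3 smallest p-values. It also names the 3 genes nearest to Ccnd1 and to Cdkn1a among named symbols. The other genes with values were picked after the values were seen (the markers, Ccne1, E2f1, Pcna, Trp53, Myc, Skp2, Klhl9, Mtap, Ankrd1). The limma fit was tested on simulated counts with planted changes larger than those of the members. No sequence is printed, as no mouse reference was used.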

Additional observations from a re-analysis of the deposited data

How the results depend on the processing

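None of the 9 members passed under any of the 11 alternatives that have a test. Each member kept its direction under these, except Cdk4, at 0.071 under quantile normalization. With 1 shNF2 library left out there is no test. Cdk4 then ran from -0.22 to 0.0013, Cdk6 from -0.23 to 0.017, Rb1 from -0.22 to 0.16 and Zbtb17 from -0.63 to 0.060, so each changed sign with 1 of the libraries left out. Over all genes, limma called 53 higher and 55 lower. With no filter on low values these were 110 and 122, and under quantile normalization or without a variance trend 0 and 0 (882 and 1036 genes at an unadjusted p under 0.05). edgeR called 29 higher and 52 lower, and the length and GC correction 37 and 59. The call on Hacd4, the 1 called pathway or neighbour gene, left 0 called with a mean of at least 50, where it was not tested, under quantile normalization, without a variance trend, with edgeR and with DESeq2. The cause of these losses was otherwise not tested. No paired analysis was possible because shSC and shNF2 share no replicate number. The members had 424 reads or more in every library, and the control has a single library.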
